A study of Mus musculus with 6 samples.

Results

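The miR-212 and miR-132 hairpins are a pair of miRNA precursors cut from one primary transcript. The members were chosen by name, as every listed arm or copy of miR-212 or miR-132, and 4 of 689 listed miRNAs met this rule: miR-212-5p, miR-212-3p, miR-132 and miR-132*. The pair itself was singled out with the fold change of the stretch comparison in these samples already known, and that fold change is neither used nor shown here. Small RNA was sequenced from EMCMs, wild-type embryonic mouse cardiomyocytes of E16.5 grown on collagen-coated flexible plates. The labels give 3 samples kept static for 24 hours and 3 samples stretched cyclically by 16% at 1 Hz for 24 hours, whereas the methods speak of 6 samples in each group. The labels name Swiss Webster and the methods CD1 mice, and nothing states whether the samples came from separate litters or cultures. The value used for each miRNA was the authors' mean abundance over static and stretched samples together, so each level below belongs to both groups at once. Values of single samples or groups were not analysed here, and neither the spread between replicates nor the effect of stretch is given. For the same reason no difference between levels was tested against replicate error.

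A miRNA is cut from a folded RNA hairpin, whose 5′ side gives the 5p arm and whose 3′ side gives the 3p arm. One arm is usually loaded into an Argonaute protein and guides it to mRNAs, which it recognises mainly through the seed, bases 2 to 8 of the arm. miR-212 and miR-132 are known for their induction by CREB in neurons and, in heart muscle, for promoting hypertrophy and limiting autophagy through repression of the transcription factor FoxO3. In the older naming used for miR-132, the name without an asterisk is the 3p arm and miR-132* is the 5p arm.

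The mature sequences are shown because the seeds decide which of the 4 arms belong to one targeting family. They are RefSeq sequences on GRCm38.p6, all 4 arms were matched, and the capitals mark the seed.
miR-132: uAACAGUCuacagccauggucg
miR-212-3p: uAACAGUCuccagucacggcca
miR-212-5p: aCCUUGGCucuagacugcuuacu
miR-132*: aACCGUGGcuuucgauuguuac
The 3p arms had the same seed, AACAGUC, and no other of the 1679 RefSeq mature miRNA names in mouse carried it. The seeds of miR-212-5p and miR-132* differed from it and from each other, and neither was found in another mature miRNA. Thus the locus encodes 3 seeds in its 4 arms. Outside the seed, the 3p arms differed at 5 of 22 positions. Counted from 1 at the 5′ end, with the base of miR-132 first and that of miR-212-3p last, the differences were A10C, C14U, U17C, U20C and G22A. The longest run shared by the 3p arms was 9 nt, uaacagucu. This is shorter than the shortest tag kept by the authors, so a kept tag that matches one 3p arm without mismatch cannot match the other. The 5p arms were identical at 17 of 24 aligned positions (70.8%) and shared a run of 5 nt at most. Each mature sequence was found in 1 annotated GENCODE gene only, its own hairpin.

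In GRCm38, Mir212 lies at chr11:75173388-75173478 and Mir132 at chr11:75173682-75173747, both on the plus strand and 203 bases apart. Both lie in the first intron of the noncoding transcript 1700016P03Rik, which spans chr11:75172560-75177633 and is annotated with 3 exons. Neither hairpin overlaps an exon of this transcript. The authors' build is not given in the sources used here, and these positions come from the reference alone. The hairpins are printed with both arms in capitals, to show how the arms face each other.
Mir212: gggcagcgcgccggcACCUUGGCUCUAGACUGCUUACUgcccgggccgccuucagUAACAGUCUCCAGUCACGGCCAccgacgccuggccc
Mir132: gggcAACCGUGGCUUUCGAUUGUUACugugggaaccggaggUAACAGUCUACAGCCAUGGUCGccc
As annotated in RefSeq, the Mir212 hairpin was longer, 91 nt against 66 nt, and richer in G and C, 69.2% against 57.6%. Length, base content, energy and the place of the arms hold for the annotated extent of each hairpin. The median over the 316 listed hairpins with a single matched locus was 50.0%, and 98.4% of them were below Mir212 and 82.0% below Mir132. RNAfold predicted a minimum free energy of -41.5 kcal/mol with 32 base pairs for Mir212 and -37.2 kcal/mol with 26 base pairs for Mir132. Per nucleotide, Mir132 had the lower energy, -0.56 against -0.46 kcal/mol. In the predicted folds 18 of the 23 bases of miR-212-5p and 16 of the 22 bases of miR-212-3p were paired. For both miR-132 and miR-132* it was 18 of 22 bases. Between the arms lay 17 nt in Mir212 and 15 nt in Mir132.

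**Figure D1:**
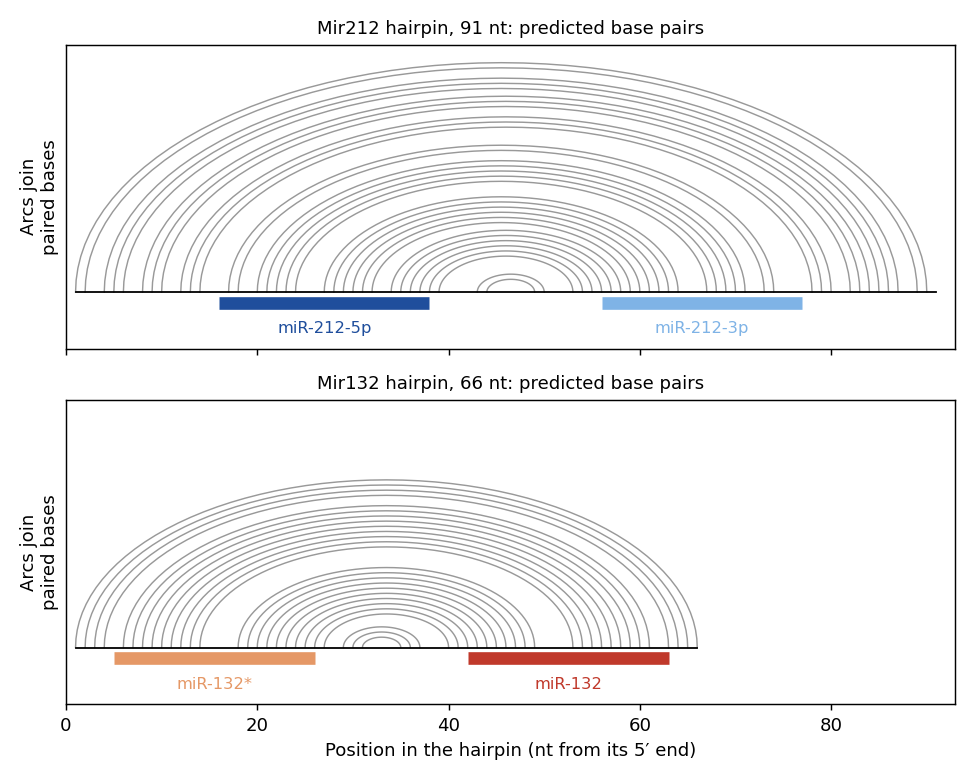
Predicted base pairs of the Mir212 and Mir132 hairpins, with the position from the 5′ end in nt on the horizontal axis, an arc for each pair and coloured bars for the mature arms. The arms of Mir212 lie farther from the ends of its annotated hairpin of 91 nt, while those of Mir132 begin at position 5 and end at position 63 of 66.

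miR-132 was the most abundant of the 4 arms. Its authors' mean abundance was -13.46 on the log2 scale, or 88.7 RPM (reads for every 1000000 miRNA reads, as 2 to the power of the log2 mean). It took rank 150 among the 689 listed miRNAs, with 78.2% of them lower. miR-212-5p followed at -14.26 on the log2 scale, or 51.0 RPM (rank 189). So the second-ranked arm of the locus was a 5p arm and not the 3p arm that shares the seed of miR-132. miR-212-3p stood at -18.17 on the log2 scale, or 3.38 RPM (rank 359), which is -0.31 on the log2 scale relative to the median of all listed miRNAs, 4.20 RPM. miR-132* was the lowest at -21.35 on the log2 scale, or 0.373 RPM (rank 520), and 24.5% of the listed miRNAs were lower. The order was therefore miR-132, miR-212-5p, miR-212-3p and miR-132*, with steps of 0.80, 3.91 and 3.18 on the log2 scale. Whether neighbours in this order differ beyond the spread over samples could not be told, and the step of 0.80 between miR-132 and miR-212-5p was the smallest. From the highest to the lowest arm the levels spanned 238-fold. The 4 arms added up to 143 RPM, of which miR-132 held 61.9%, miR-212-5p 35.5%, miR-212-3p 2.36% and miR-132* 0.260%. No other listed miRNA had the same value as any of the 4 (compared at 6 decimals).

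**Figure D2:**
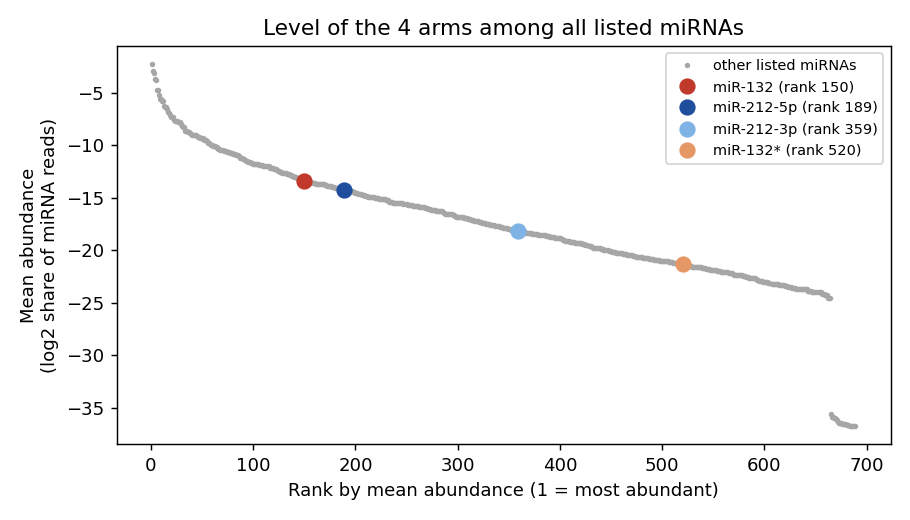
Authors' mean abundance (log2 share of miRNA reads, vertical axis) of 689 listed miRNAs by rank (horizontal axis), with the 4 arms in colour and all others in grey. miR-132 and miR-212-5p lie in the upper part of the curve at ranks 150 and 189, miR-212-3p lies near the middle at 359 and miR-132* at 520. The 25 points at or below -35.64 stand apart from the rest.

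The arms were compared by reads, and whether ligation and PCR captured arms of unlike sequence equally was not tested. By reads, the 5p arm dominated in the Mir212 hairpin. miR-212-5p was 15.1-fold as abundant as miR-212-3p and held 93.8% of the summed level of the hairpin, leaving 6.22% for miR-212-3p. In the Mir132 hairpin the 3p arm dominated. miR-132 was 238-fold as abundant as miR-132* and held 99.6% of the sum, leaving 0.419% for miR-132*. The hairpins of this transcript therefore had their more abundant arm on opposite sides. On the log2 scale the ratio of the higher to the lower arm was 3.91 for miR-212 and 7.89 for miR-132. The same ratio was taken in all 238 hairpins with both arms listed, and its median was 4.06 with quartiles of 1.85 and 7.69. miR-212 thus lay close to the median, with 113 hairpins below and 124 above it. miR-132 lay above the upper quartile, with 181 hairpins below and 56 above it. Both positions depended on the kind of name. For the 70 hairpins named 5p and 3p the median was 2.16, and miR-212 lay above it. For the 168 named with an asterisk the median was 4.77 and the upper quartile 8.55, and miR-132 lay between these. Where both arms were named 5p and 3p and both lay above -25 on the log2 scale, the 5p arm was the higher one in 28 of 68 hairpins and the 3p arm in 40. miR-212 was 1 of the 28.

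**Figure D3:**
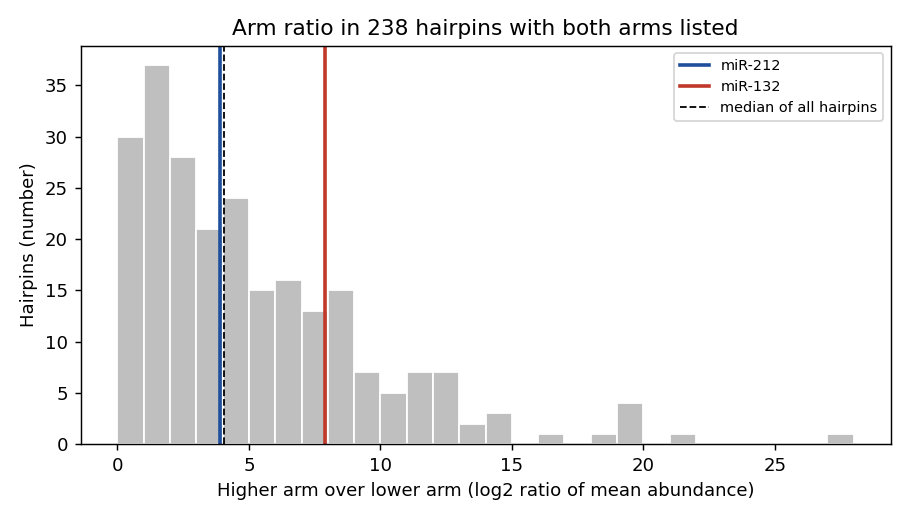
Number of hairpins (vertical axis) by the log2 ratio of the higher to the lower arm (horizontal axis) for 238 hairpins. The line for miR-212 at 3.91 lies next to the dashed median of 4.06, and the line for miR-132 at 7.89 lies just above the upper quartile of 7.69.

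The pairing of the 5′ ends of the arms was read from the predicted folds. Among the first 4 bases of miR-212-5p 2 were paired, with 6 hydrogen bonds when a G-C pair counts as 3 and any other pair as 2. All 4 of the first bases of miR-212-3p were paired, with 9 hydrogen bonds. In Mir132 the first 4 bases of miR-132* had 3 pairs and 8 hydrogen bonds, and those of miR-132 had 4 pairs and 9 hydrogen bonds. By this count of hydrogen bonds, the more abundant arm had the more weakly paired 5′ end in Mir212 and the more strongly paired one in Mir132. By G-C pairs alone the order was reversed in both hairpins. miR-212-5p and miR-132* had 2 such pairs each, against 1 each for miR-212-3p and miR-132. Hairpins with arms named 5p and 3p, a single locus and unequal hydrogen bonds at the arm ends numbered 30. The arm with fewer of these bonds was the more abundant in 18 (60.0%). Mir212 is counted in both the 30 and the 18, while Mir132 is left out because its arms are named with an asterisk. The part of end pairing in the arm ratios was not tested.

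Summed over its arms, the Mir132 hairpin stood at 89.1 RPM and the Mir212 hairpin at 54.3 RPM, a ratio of 1.64, or 0.71 on the log2 scale. Neighbours within 1 kb of each other on one strand, with both arms listed in both hairpins, gave 30 such pairs, this one included. The median difference within these pairs was 2.47 on the log2 scale, with quartiles of 1.44 and 5.18 and a range from 0.15 for miR-18a and miR-19a to 10.2 for miR-191 and miR-425. In 5 pairs the difference was smaller than between miR-212 and miR-132, and in 24 it was larger. Hence the summed levels of these neighbours were closer than in most such pairs, although the arms that dominate the sums lay on opposite sides. Without the condition on both arms there were 59 pairs, with 9 smaller and 49 larger differences. These include hairpins for which a single arm is listed under the name, often the rarer arm of a miRNA with several copies, and their sums then leave out the other arm. The condition was added after the values had been seen. The pairs share hairpins within larger clusters and are not independent.

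**Figure D4:**
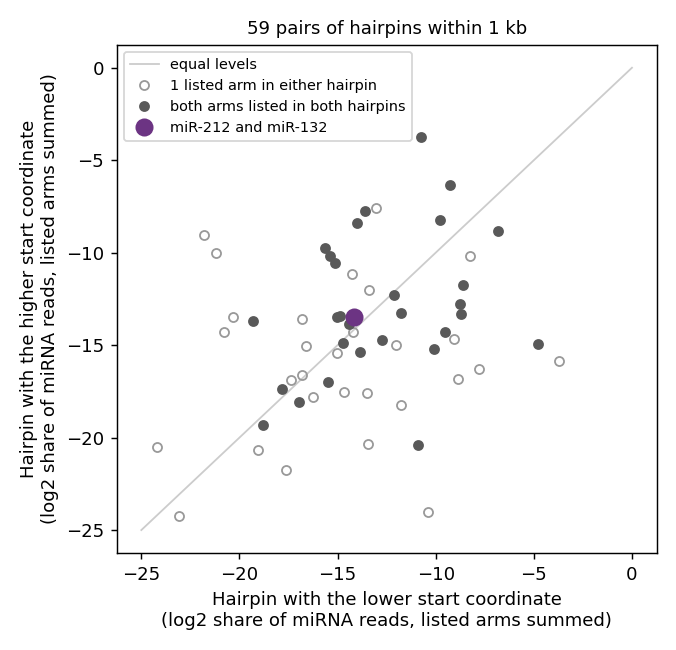
Summed level of the listed arms (log2 share of miRNA reads) for 59 pairs of hairpins within 1 kb on one strand, with the hairpin at the lower start coordinate on the horizontal and the other on the vertical axis. Filled grey points and the purple one are the 30 pairs with both arms listed in both hairpins, and open points are pairs in which a hairpin has 1 listed arm. The purple point for miR-212 and miR-132 lies near the line of equal levels, 0.71 log2 units from it in vertical distance.

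Together, the arms with the seed AACAGUC made up 92.1 RPM. miR-132 supplied 96.3% of this pool and miR-212-3p 3.67%, a ratio of 26.2. The summed hairpins thus differed by 1.64-fold, whereas their contributions to the shared seed differed by 26.2-fold. Most of the level of the Mir212 hairpin, miR-212-5p, carried the seed CCUUGGC instead.

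The match of the shared seed in an mRNA is GACTGTT, written here as DNA. It was searched on the sense strand of the 3′ untranslated region, taking for each gene the annotated GENCODE coding transcript in which this region is longest. Of 20848 genes, 2251 (10.8%) held at least 1 match. As examples of known targets, Foxo3 held 2 matches and Rasa1 and Arhgap32 held 1 each. Foxo3 encodes the transcription factor FoxO3, and Rasa1 and Arhgap32 encode GTPase-activating proteins. These genes were chosen because they are established targets, and their regions of 1324 to 7298 nt are longer than the median of 975 nt. The sites are printed 5′ to 3′ on the strand of the gene, with the match in capitals.
Foxo3, chr10:42186162-42186184, minus strand: ccctaacccagcagaGACTGTTa
Foxo3, chr10:42182467-42182489, minus strand: caggaatacttgtgcGACTGTTt
Rasa1, chr13:85215627-85215649, minus strand: tgaacatgaccatttGACTGTTc
Arhgap32, chr9:32261177-32261199, plus strand: ctctgctggacagtgGACTGTTc
The match in Foxo3 that is nearer to the stop codon began 162 nt after it and was followed by an A. A letter match is no measured binding, and the mRNAs and proteins of these genes were not analysed here.

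The levels were set beside 17 other miRNAs linked to cardiac hypertrophy or growth, whatever the direction of their effect. For miR-486 in this list, the paper reports larger ventricles in newborn mice without a change in wall thickness. All 17 were listed, with a median of -9.76 on the log2 scale, while the median of all listed miRNAs was -17.86. These medians compare unlike sets, since none of the 17 is named with an asterisk and many listed miRNAs are. Where both arms of such names were listed, the asterisk arm was the lower one in 153 of 168 hairpins. miR-132 and miR-212-5p both lay below 15 of the 17 and above only miR-9 and miR-195. miR-212-3p and miR-132*, each the lower arm of its hairpin, lay below all 17. The highest of the list was miR-22, the most abundant miRNA of all with 20.5% of the miRNA reads, a level 2308-fold that of miR-132 and 4018-fold that of miR-212-5p. The muscle miRNA miR-208b, encoded in a myosin heavy chain gene, stood at 11734 RPM and miR-133a at 1860 RPM. Closest above miR-132 was miR-34a, a p53-induced miRNA, at 158 RPM. Closest below miR-212-5p was miR-9, a neuronal miRNA, at 18.1 RPM.

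**Figure D5:**
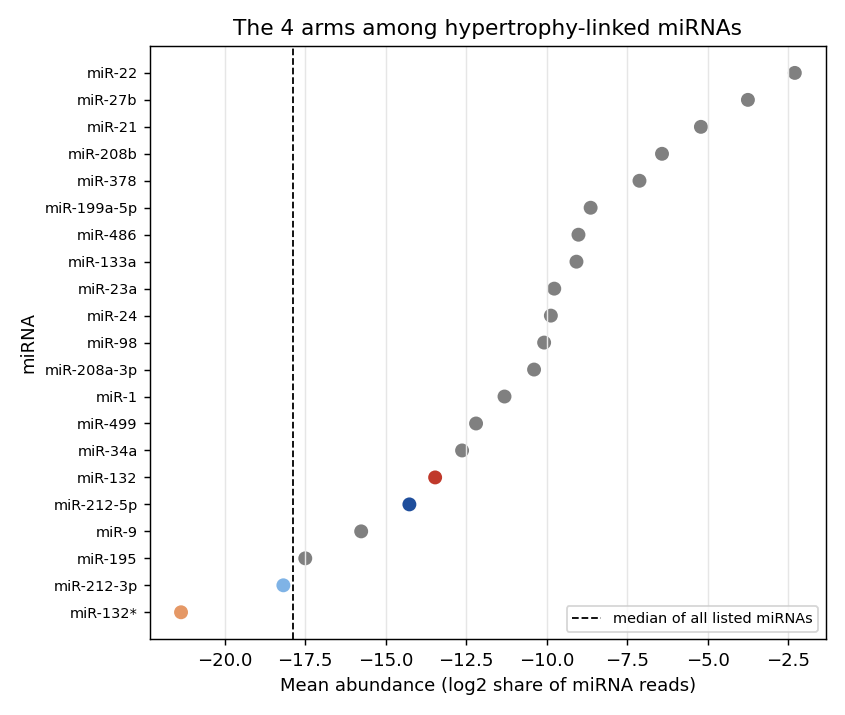
Authors' mean abundance (log2 share of miRNA reads, horizontal axis) of the 4 arms, in colour, and of 17 other miRNAs linked to hypertrophy or growth, in grey. The dashed line is the median of all listed miRNAs. miR-132 and miR-212-5p lie below 15 of the 17, and miR-212-3p and miR-132* below all of them.

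The miRNAs nearest in level were taken as the pair next above and the pair next below each arm. For miR-132 they were miR-296-5p and miR-382 above and miR-92a-1* and miR-20a below, from 88.2 to 95.2 RPM. For miR-212-5p they were miR-490-3p and miR-673-5p above and let-7c-2* and let-7a-1* below, from 50.0 to 51.9 RPM. The last pair had identical values. For miR-212-3p the neighbours were miR-17*, miR-425*, miR-665 and miR-218-1*, from 3.34 to 3.52 RPM. For miR-132* they were miR-505-5p, miR-301b*, miR-3103 and miR-216a, from 0.362 to 0.375 RPM. Likeness here is the difference in log2 mean abundance, over 1 mean value for each miRNA.

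The labelled cell type was checked against marker miRNAs. All 6 cardiomyocyte markers were listed, from 10.6 RPM for miR-133b to 11734 RPM for miR-208b, and 5 of them lay above miR-132. The markers of other cell types were listed as well. All endothelial, smooth muscle and fibroblast markers also lay above miR-132, as did 1 neuronal marker but no blood or epithelial one. The smooth muscle miRNAs miR-143 and miR-145 stood at 133295 and 694 RPM. The endothelial miR-126-5p and miR-126-3p stood at 4642 and 129 RPM, and the 3 fibroblast markers ranged from 279 to 2524 RPM. The 5 blood markers summed to 82.2 RPM, of which miR-142-5p held 74.9, while the other 4 ranged from 0.450 to 4.20 RPM. The 6 epithelial markers summed to 45.3 RPM and the 4 neuronal ones that were listed to 308, of which miR-128 held 267. The neuronal miR-124 was not listed. miR-212 and miR-132 are also expressed outside muscle, and the part of other cells in their levels was not tested.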

How the data were processed

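Small RNA libraries (TruSeq) from static and stretched EMCMs were sequenced on a HiSeq2500. According to the methods, the authors removed low-quality reads and adaptors, kept tags by length, mapped them to the mouse genome with Bowtie2, summed hits per gene ID and used edgeR; the labels name DESeq among the tools of the authors. The genome build, miRNA release, tool versions, normalization and any filter on low counts are not given in the sources used here.

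For each miRNA the authors deposited 1 mean abundance for all samples, taken here as a log2 share of reads. Base 2 was inferred, since raising 2 to these values accounts for 99.5% of reads in total. The 4 other columns hold the authors' comparison of stretch with static (log2 fold change, signed fold change, P value and FDR) and were not used. Depth per sample, and so the precision of each level, is unknown. The planned count test was not run.

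Levels were expressed as 2 to the power of the value, for every 1000000 reads (RPM). How the authors averaged over samples is not given. RPM values, their sums and their percentages may therefore differ from shares of pooled reads. Ratios between miRNAs are ratios of reads, and equal capture of unlike sequences in library preparation was not tested. Arms were paired as names with and without an asterisk or as 5p and 3p. Hairpins were matched to RefSeq by name where 1 locus fitted, 316 of 450 names. Sequences came from RefSeq (GRCm38.p6), transcripts from GENCODE M21. miR-1 is listed as miR-1a. Name matching and arm pairing were tested on simulated data. Named miRNAs are the 4 arms, any sharing their seed, the nearest in level, the most abundant, and the hypertrophy and marker lists; the known targets, and single miRNAs singled out from the lists, were chosen later, and 1 further known target is not reported here. Members and lists were chosen with earlier results of these data known. Python 3.11.15, numpy 2.4.6, pandas 2.3.3, Biopython 1.88, matplotlib 3.10.9 and ViennaRNA 2.7.2 were used.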

Additional observations from a re-analysis of the deposited data

How the results depend on the processing

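Of 30 alternative values, 14 lay within 5% of those reported, a limit used because unknown depth allows no counting interval. Without the 10 most abundant miRNAs the levels were 349, 201, 13.3 and 1.47 RPM for miR-132, miR-212-5p, miR-212-3p and miR-132*, in the same order. Among miRNAs above -20 on the log2 scale, 66.3% were lower than miR-132, 57.5% lower than miR-212-5p and 19.3% lower than miR-212-3p; miR-132* is not among them. Above -25, 21.7% were lower than miR-132*. Among the more abundant listed arms of each hairpin name, 71.6% were lower than miR-132 and 65.6% lower than miR-212-5p. The arm ratio of miR-212 exceeded that of 54.7% of hairpins with both arms above -20 and 65.7% of those named 5p and 3p (47.5% of all); that of miR-132 exceeded 69.0% of those named with an asterisk (76.1% of all). The hairpin ratio of 1.64 was 1.74 by the more abundant arms and 26.2 by the arms with the shared seed. Neighbouring pairs with a smaller difference were 16.7% with both arms listed in both hairpins, a setting chosen after seeing the data, and 15.3% of all pairs within 1 kb. Base 10 was not carried through, since the shares would then add up to 0.756%. Identical miRNAs were recognised by mean abundance alone. No paired analysis was possible because only a mean over all samples was used; DESeq2 size factors, other count filters, the replicate block and leaving out replicates were not run for the same reason. The unknown depth limits miR-132* most, which lay 3.17 log2 units above the lowest of the 664 miRNAs above -25.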

Other observations

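Among the 689 listed miRNAs, 25 had a mean abundance of -35.64 or lower on the log2 scale, while the other 664 lay at -24.52 or higher. Why these values stand apart was not tested, and they may not be measured levels. They were kept in the ranks and in the 238 arm ratios. In the 228 hairpins with both arms above -25, 49.6% of the ratios were below that of miR-212 and 79.4% below that of miR-132. None of the 4 arms of miR-212 and miR-132 was among the 25. Of the ranges above -25, the lowest held the largest share of values common to at least a pair of miRNAs (at 6 decimals). There, 13.6% of the 66 miRNAs between -25 and -23 shared theirs. Of the 101 between -23 and -21, the range that holds miR-132*, 1.98% did. The share did not fall steadily with level, being 3.16% from -21 to -19, 4.30% from -19 to -17 and 2.59% above -17.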
